A study of Mus musculus with 305 samples.

Results

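The ventral hippocampus was profiled by bulk RNA-seq in male wild-type mice 24 h after the last of 15 d of intravenous self-administration. The libraries labelled vHPC were taken in the groups H24 (heroin self-administration, 11 mice) and S24 (saline self-administration, 8 mice), which makes 19 libraries, 6.23% of those of the series. No challenge injection or drug-seeking test is recorded for these mice, and the labels give neither strain nor age. The series title names the transcriptional signature of heroin intake across the reward circuitry as its subject, and this comparison gives the ventral hippocampal share of it at early withdrawal. All genes that passed a filter on low counts were tested, and choroid plexus genes were examined on their own, because that tissue lies against the hippocampus in the lateral ventricle.

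The hippocampus is built of the dentate gyrus, whose granule cells receive cortical input, and the pyramidal cell fields CA3, CA2 and CA1, through which that input passes in turn. Its ventral pole projects to the amygdala, the nucleus accumbens and the prefrontal cortex, and it is studied for anxiety, stress and the contexts that drive drug seeking. Heroin acts, after conversion to morphine, on the μ-opioid receptor, which in the hippocampus is found mainly on inhibitory interneurons. The choroid plexus is a sheet of epithelium that secretes cerebrospinal fluid into the ventricles, and a dissection of the hippocampus can take a piece of it along.

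Total counts ran from 24.22 to 44.56 M per library in H24 and from 25.91 to 45.15 M in S24, with a median of 30.67 M over both. Markers of hippocampal neurons were present in every library. Each library was compared with the other 18 by rank correlation, and 3 fell far below the rest: H24 mouse 40 at -12.75 scaled median absolute deviations of the median correlation, H24 mouse 39 at -6.68 and S24 mouse 46 at -9.98. Results that rest on these libraries are given with and without them. Since these are bulk samples, fewer cells of a type and less RNA per cell cannot be told apart.

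No gene of the ventral hippocampus passed the threshold between H24 and S24. Of 17955 genes tested, 0 (0%) had an adjusted p under 0.05 by edgeR's quasi-likelihood test with Benjamini-Hochberg adjustment, the smallest adjusted p being 0.9998, and DESeq2 called 0 as well. At an unadjusted p under 0.05 edgeR gave 403 genes higher (2.24%) and 300 lower (1.67%) in H24, together 703 (3.92%), and DESeq2 gave 648 (3.61%). Without H24 mouse 40 edgeR gave 1.31% of genes higher and 1.43% lower. For no gene did the 11 H24 libraries and the 8 S24 libraries fall into ranges that do not overlap. The median log2 difference over all genes was -0.0013, and 49.5% of the genes lay above 0. Every difference below is therefore a description of these mice, and p-values given with it are unadjusted values from edgeR unless they are called adjusted. Counts of H24 libraries above or below the S24 mean compare normalised log2 values with the mean of the S24 log2 values.

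The genes with the greatest log2 differences were genes of the choroid plexus, and their levels were set by 1 mouse. Of the 28 listed choroid plexus genes, 24 passed the filter, all 24 had a higher mean in H24, and 22 had an unadjusted p under 0.05, beside a background of 2.24% of all genes. The median log2 difference of the list was 2.97, against -0.0013 over all genes. In all 24 the highest of the 19 libraries was H24 mouse 40, which was the highest library for 14.3% of all genes tested. The 4 members that did not pass the filter, Wfdc2, Kcne2, Steap1 and Tmem72, were also highest in that mouse, at 25.4, 93.1, 25.6 and 193.6 CPM (counts scaled to a common library total).

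Ttr, which encodes transthyretin, the thyroid hormone carrier that the choroid plexus secretes into cerebrospinal fluid, reached 14164.5 CPM in H24 mouse 40. It lay between 0.472 and 122.3 CPM in the other 10 H24 mice and between 0.295 and 111.8 CPM in S24 mice, with medians of 27.6 CPM in H24 and 14.9 CPM in S24. The other 10 H24 mice and the S24 mice covered nearly the same range. The log2 difference was 5.58 ± 1.77 (SE) over all libraries and 0.53 without mouse 40, with p = 0.50. Enpp2, the secreted enzyme autotaxin, stood at 6037.6 CPM in mouse 40, between 64.4 and 180 CPM in the other H24 mice and between 65.8 and 205 CPM in S24 mice. Kl, the anti-ageing protein klotho, stood at 626 CPM in mouse 40, 12.9 to 32.4 CPM in the other H24 mice and 12.6 to 39.7 CPM in S24 mice.

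**Figure D1:**
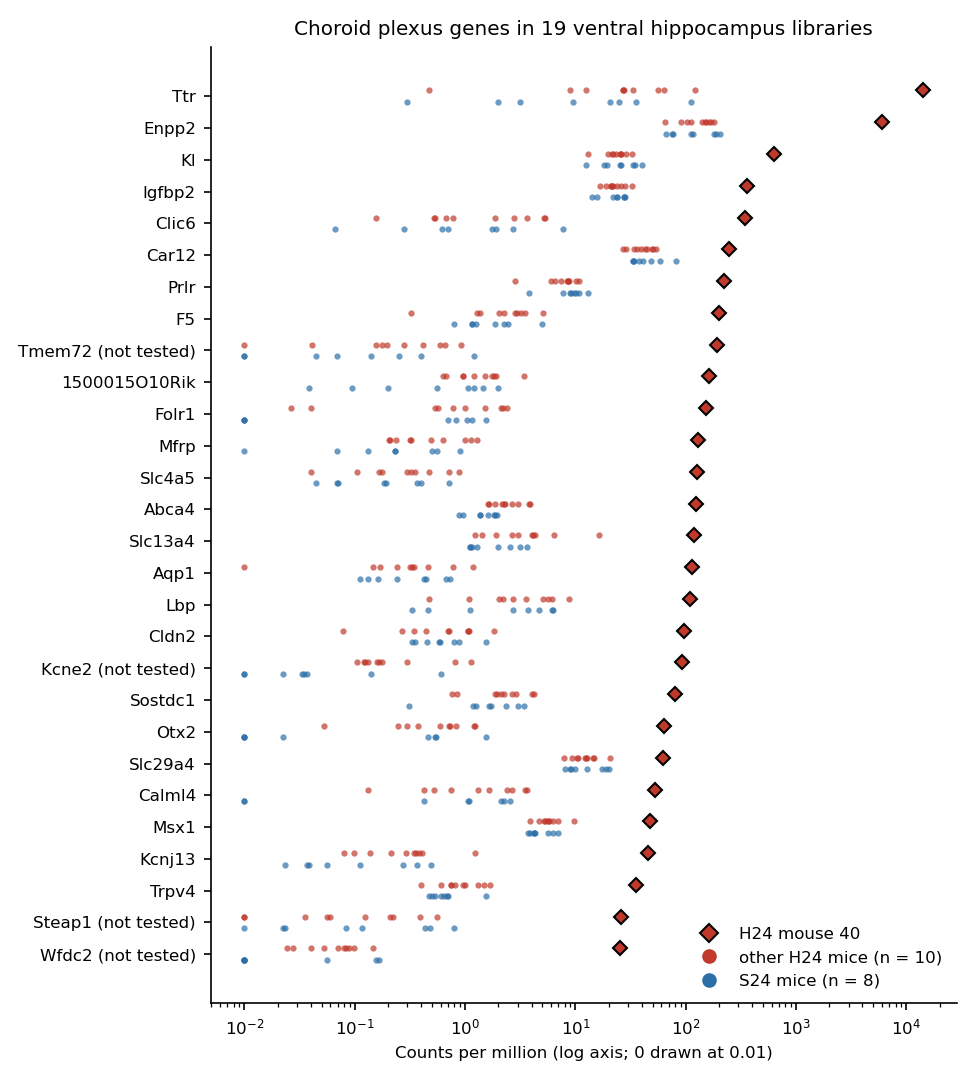
CPM (log axis) of the 28 choroid plexus genes, 1 row per gene, with H24 points above S24 points in each row; the diamond is H24 mouse 40 and values of 0 are drawn at 0.01. The diamond lies to the right of all other points in every row, while the other 10 H24 mice and the 8 S24 mice overlap, for Ttr at 0.472 to 122.3 and 0.295 to 111.8 CPM.

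The transporters and channels of the same epithelium had the same pattern. Slc4a5, a sodium bicarbonate cotransporter, was at 127.5 CPM in mouse 40, at most 0.88 CPM in the other H24 mice and at most 0.715 CPM in S24 mice. Aqp1, the water channel of the apical membrane, was at 113.97 CPM in mouse 40, between 0 and 1.17 CPM in the other H24 mice and between 0.111 and 0.733 CPM in S24 mice. The tight junction gene Cldn2 was at 97.1 CPM in mouse 40, at most 1.83 CPM in the other H24 mice and at most 1.54 CPM in S24 mice. Folate receptor gene Folr1, potassium channel gene Kcnj13 and the retinal and choroidal gene Mfrp were likewise at 154.03, 45.2 and 130.4 CPM in mouse 40, with no other library above 2.38, 1.24 and 1.27 CPM. Genes that other hippocampal cells also use, such as Car12 and Slc29a4, differed less between mouse 40 (247.1 and 61.7 CPM) and the highest other H24 library (53.8 and 20.6 CPM) or S24 library (81.4 and 20.3 CPM).

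The listed genes together took 2.41% of the counts of mouse 40, 0.0160% to 0.0459% in the other H24 mice and 0.0180% to 0.0517% in S24 mice. Without mouse 40, 22 list members passed the filter, 18 of them lay above 0, their median log2 difference was 0.29 and 2 had an unadjusted p under 0.05, beside a background of 1.31% of genes higher at that threshold. Those 2 were Abca4, a lipid flippase gene best known from photoreceptors, and Slc13a4, a sulfate transporter gene. Abca4 ranged from 1.62 to 123.8 CPM with a median of 2.29 CPM in H24 mice and from 0.888 to 1.96 CPM with a median of 1.49 CPM in S24 mice. The groups overlapped, but all 11 H24 libraries lay above the S24 mean, and without mouse 40 the log2 difference was 0.74 ± 0.21 (SE, p = 0.0020, adjusted p = 1.00). Slc13a4 ranged from 1.24 to 119.4 CPM in H24 mice and from 1.11 to 3.61 CPM in S24 mice, with medians of 4.01 CPM in H24 and 1.63 CPM in S24, and its log2 difference without mouse 40 was 1.16 (p = 0.014, adjusted p = 1.00). H24 mouse 38 held 16.3 CPM of Slc13a4, and the H24 mice other than 38 and 40 at most 6.38 CPM. A fit without both of these mice was not run.

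DESeq2 replaces single extreme counts in groups of this size, and it replaced counts in 178 genes, among them 23 of the 24 choroid plexus genes. The median of the list was 0.39 in that fit, with 21 members above 0 and 3 below.

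Otx2, the homeobox factor of choroid plexus epithelium, is itself a list member and was at 63.1 CPM in mouse 40, between 0.0524 and 1.22 CPM in the other H24 mice and between 0 and 1.54 CPM in S24 mice. OTX2 is known to bind the letters TAATCC, which were searched on both strands in the 250 bases before the gene start in RefSeq (GRCm38.p6). Of the 28 list genes 21 have such a window in the table, and 3 of those hold the letters (Abca4, Mfrp and Otx2), while 7.21% of all 27025 genes with a window do, as do 6.25% of the 32851 windows. The windows of 2 members that differ in mouse 40 are printed to show where the letters fall, with the match, read on the opposite strand, in capitals. The Mfrp window is chr9:44101520-44101769 and the Abca4 window is chr3:122044210-122044459, both on the + strand and read 5′ to 3′.
Mfrp: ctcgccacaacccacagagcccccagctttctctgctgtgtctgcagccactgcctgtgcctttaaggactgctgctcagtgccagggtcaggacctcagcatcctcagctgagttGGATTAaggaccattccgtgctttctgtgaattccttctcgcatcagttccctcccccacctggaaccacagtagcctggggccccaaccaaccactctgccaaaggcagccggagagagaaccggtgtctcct
Abca4: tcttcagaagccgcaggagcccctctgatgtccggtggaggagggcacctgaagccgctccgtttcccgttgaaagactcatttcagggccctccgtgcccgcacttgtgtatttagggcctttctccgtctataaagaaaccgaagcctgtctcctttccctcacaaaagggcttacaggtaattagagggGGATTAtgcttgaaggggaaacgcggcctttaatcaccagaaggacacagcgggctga
Each window holds 1 match, and a match is a run of letters and no measure of binding.

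Ttr was also high in the amygdala of several mice, and in mouse 40 it was high in the ventral hippocampus and the amygdala among 6 regions. The amygdala (BLA) library of mouse 40 held 4354.9 CPM of Ttr, and its libraries of dorsal striatum, nucleus accumbens, prefrontal cortex and ventral tegmental area held 0.855, 0.0697, 0.194 and 4.59 CPM. In the BLA, H24 mice 39, 42, 48 and 51 held between 3685 and 9493 CPM, while in the ventral hippocampus the same 4 mice held between 0.472 and 122.3 CPM. S24 mouse 46 held 1712.9 CPM in the BLA and 3.17 CPM in the ventral hippocampus. Among these 6 mice high Ttr was found in both regions in mouse 40 alone.

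Markers of neighbouring tissues, taken as the mean of each list, were also highest in mouse 40. It was the highest library for 5 of 5 tested blood genes, 7 of 12 meningeal fibroblast genes and 8 of 13 ependymal genes. Over all genes tested that share was 14.3%. The background of genes higher at an unadjusted p under 0.05 was 2.24% with mouse 40 and 1.31% without it. All 5 tested blood genes were higher in H24, with a median log2 difference of 0.74 and 4 at an unadjusted p under 0.05, and without mouse 40 the median was 0.32 with 2 such genes. Hba-a1, an α-globin gene, was at 184 CPM in mouse 40, between 24.8 and 56.2 CPM in the other H24 mice and between 19.7 and 39.6 CPM in S24 mice. Its near-identical copy Hba-a2 can share its reads, so the division between them is uncertain. Of 12 meningeal fibroblast genes 11 were higher (median 0.59, 5 at an unadjusted p under 0.05), and 10 of 12 without mouse 40 (median 0.36, 4 at that threshold). Of these, Col1a1, a chain of type I collagen, ranged from 2.39 to 17.1 CPM with a median of 5.68 CPM in H24 mice and from 2.64 to 4.97 CPM with a median of 3.84 CPM in S24 mice. The groups overlapped at the low end, and the log2 difference was 0.91 ± 0.30 (SE, p = 0.0055) with mouse 40 and 0.72 (p = 0.012) without it. All 13 ependymal genes, which serve the ciliated lining of the ventricle, were higher (median 0.50, 1 at an unadjusted p under 0.05), and 12 of 13 without mouse 40 (median 0.21, 0 at that threshold). The blood, meningeal and ependymal scores, each the mean log2 CPM of its list in a library, overlapped between the groups. With the choroid plexus and blood scores as covariates 0 genes were called and 595 (3.31%) had an unadjusted p under 0.05, and the part of the meningeal and ependymal scores in the other differences was not tested.

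Other leading genes were also by far highest in the same mouse, and Sema3b kept part of its difference without it. Sema3b, a secreted guidance cue, ranged from 1.07 to 49.2 CPM with a median of 1.73 CPM in H24 mice and from 0.117 to 2.38 CPM with a median of 0.765 CPM in S24 mice. All 11 H24 libraries lay above the S24 mean, and the log2 difference was 2.67 ± 0.79 (SE) with mouse 40 and 1.07 (p = 0.012) without it. Col8a1, a short-chain collagen, was at 127.3 CPM in mouse 40, at most 1.97 CPM in the other H24 mice and at most 1.36 CPM in S24 mice, with a log2 difference of 4.10 with mouse 40 and 0.59 (p = 0.062) without it.

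**Figure D2:**
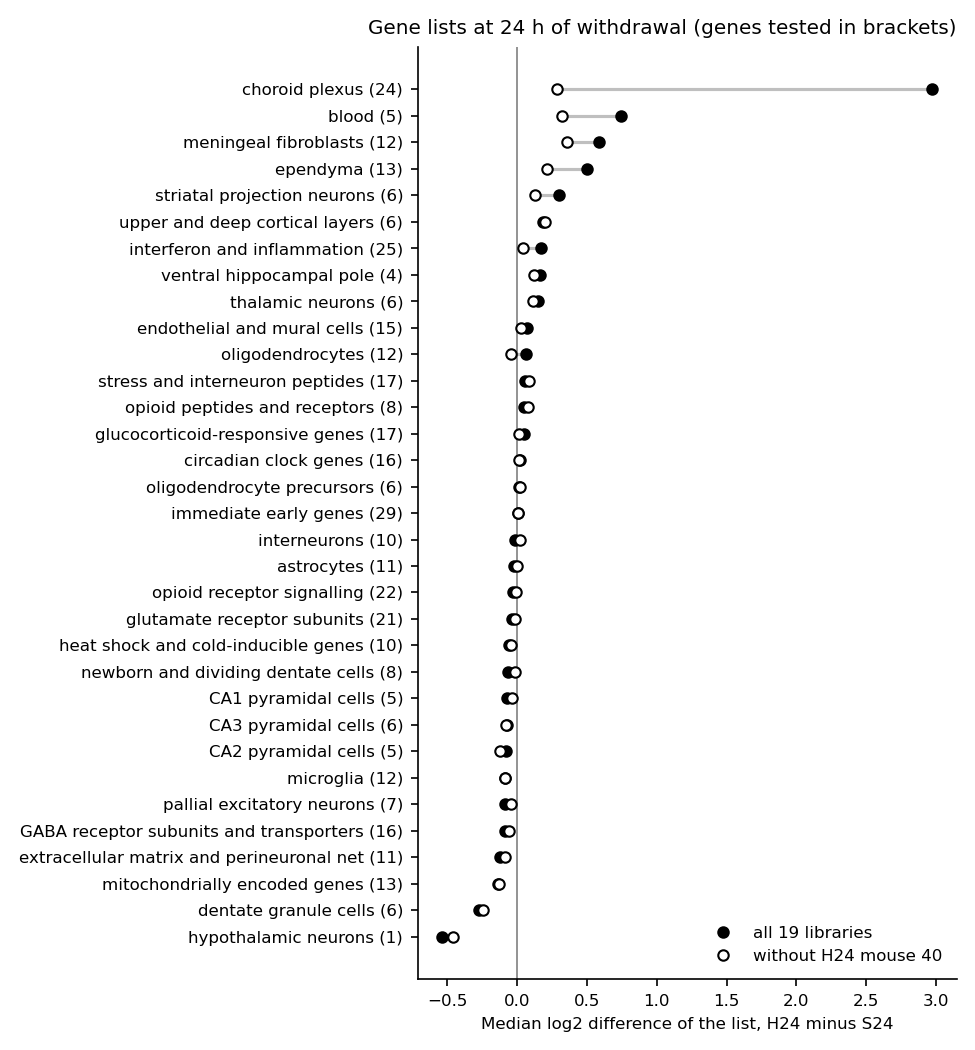
Median log2 difference, H24 minus S24, of the tested members of 33 gene lists, with all 19 libraries (filled) and without H24 mouse 40 (open); numbers in brackets count the genes tested. The choroid plexus list lies at 2.97 with mouse 40 and at 0.29 without it, and blood, meningeal fibroblasts and ependyma lie next at 0.74, 0.59 and 0.50 with it.

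The scores of the hippocampal fields varied between libraries. These lists were not scored in libraries of other regions, so the scores do not check the label of the tissue. Of the 33 lists in the plot of list medians, 16 had a median that changed sign when 1 library, or the 3 that stand apart, were left out. The CA1 score lay between 5.50 and 6.78 in H24 mice, and between 5.90 and 6.92 in 7 of the 8 S24 mice, with S24 mouse 46 at 3.71. The score of dentate granule cells lay between 1.21 and 4.59 in H24 mice and between 1.07 and 5.61 in S24 mice, and mouse 46 was the highest. The CA3 score lay between 4.48 and 6.26 in H24 mice, lowest in mouse 39, and between 4.91 and 6.38 in S24 mice.

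Prox1, the transcription factor that marks dentate granule cells, ranged from 14.4 to 98.99 CPM with a median of 38.4 CPM in H24 mice and from 14.9 to 194 CPM with a median of 40.7 CPM in S24 mice. The groups overlapped over nearly the whole range, and the log2 difference was -0.32 ± 0.45 (SE, p = 0.49). Pou3f1, a POU factor of CA1 pyramidal cells, ranged from 12.8 to 45.3 CPM in H24 mice and from 1.59 to 51.1 CPM in S24 mice, with medians of 26.5 CPM in H24 and 26.3 CPM in S24. S24 mouse 46 held both the highest Prox1 and the lowest Pou3f1. The direction of the dentate list turned on that mouse: 1 of 6 members was higher with it (median -0.27), and 6 of 6 without it (median 0.51), with 0 at an unadjusted p under 0.05 either way.

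With all libraries the other neuronal lists lay near 0. All 7 pallial excitatory neuron genes (median -0.09) and all 5 CA1 genes (-0.07) were lower. So were 5 of 6 CA3 genes (-0.07) and 3 of 5 CA2 genes (-0.08), and 0 of these 23 genes had an unadjusted p under 0.05. Without S24 mouse 46 the medians were -0.23 for CA1 and 0.06 for CA2. Without the 3 libraries that stand apart they were -0.30 for CA1, -0.24 for CA2 and 0.02 for CA3. In that last fit 1 CA1 gene and 1 CA2 gene were lower at an unadjusted p under 0.05, beside 340 of all 17650 genes. Of 4 markers of the ventral pole 3 were higher (median 0.17), among them Htr2c, a serotonin receptor gene, at 60.9 to 261.8 CPM in H24 mice and 23.7 to 107.6 CPM in S24 mice. The highest Htr2c was that of mouse 40, whose library also held the choroid plexus genes, and the other H24 mice reached 124.4 CPM; the lowest was that of S24 mouse 46. The log2 difference of Htr2c was 0.37, and 0.15 without mouse 40. Interneuron genes were split 5 and 5 (median -0.02), with Sst at 134.3 to 244.1 CPM in H24 mice and 128.6 to 207.7 CPM in S24 mice. Of 8 tested genes of newborn and dividing dentate cells 2 were higher (median -0.07), and 5 without S24 mouse 46 (median 0.13); Dcx, a microtubule protein of young neurons, ranged from 9.19 to 16.4 CPM in H24 mice and from 9.41 to 17.9 CPM in S24 mice.

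**Figure D3:**
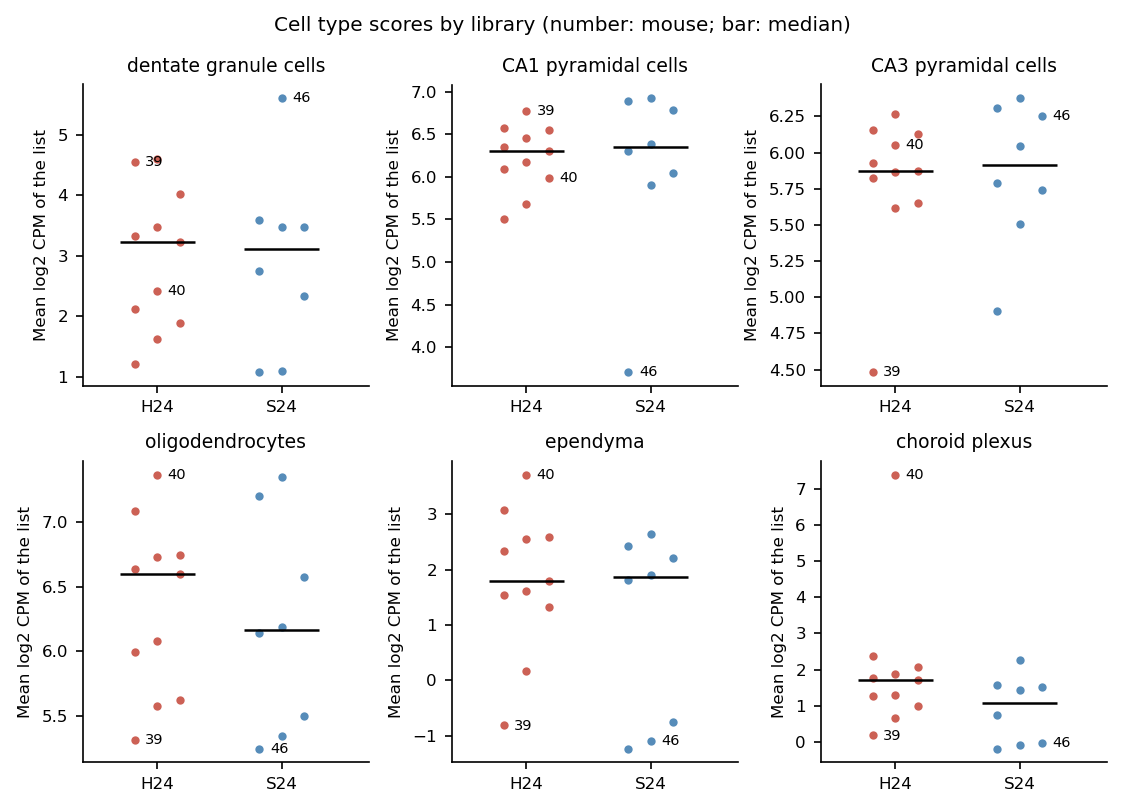
Mean log2 CPM of 6 marker lists, 1 point per library, H24 left and S24 right, with the group median as a bar and H24 mice 39 and 40 and S24 mouse 46 numbered. The groups overlap in each panel; S24 mouse 46 lies at 5.61 for dentate granule cells and 3.71 for CA1, and H24 mouse 40 at 7.39 for choroid plexus.

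Markers of regions outside the hippocampus overlapped between the groups. The score of the cortical layer list had a median of 3.05 in H24 mice and 2.99 in S24 mice. That of dentate granule cells was 3.23 in H24 mice and 3.11 in S24 mice. Each score is a mean over different genes, so the levels of different lists do not compare tissue content. Striatal projection neuron genes were higher in 5 of 6 (median 0.30). The median of that list was 0.12 without H24 mouse 40 and 0.11 without H24 mouse 33, with 5 of 6 higher each time. Without the 3 libraries that stand apart, 3 of 6 striatal genes were higher (median 0.10). Adora2a, an adenosine receptor gene, was at 1.17 to 10.3 CPM (median 1.61 CPM) in H24 mice, with mouse 40 at 5.70 CPM. In S24 mice Adora2a was at 0.908 to 2.99 CPM (median 1.26 CPM). H24 mouse 33 held the highest Adora2a and also the highest Penk, and without that mouse the log2 difference of Adora2a was 0.41 (p = 0.20), against 0.91 with it. Thalamic genes (4 of 6 higher, median 0.15) and cortical layer genes (5 of 6 higher, median 0.19) had 0 members at an unadjusted p under 0.05. Without the 3 libraries that stand apart the medians were -0.05 for the thalamic and -0.04 for the cortical list. Of the 6 hypothalamic genes only Agrp passed the filter, at no more than 0.494 CPM in H24 mice and 1.27 CPM in S24 mice.

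Lars2 and 3 loci that vary with it were lower in most H24 mice. Lars2, which encodes the mitochondrial leucyl-tRNA synthetase (chr9:123366927-123462666, + strand, GRCm38), ranged from 178 to 2101 CPM with a median of 526 CPM in H24 mice and from 79.5 to 14099.5 CPM with a median of 1664 CPM in S24 mice. The S24 group held both the lowest library, mouse 46, and the highest, mouse 41. The log2 difference was -2.24 ± 0.65 (SE, p = 0.0023, adjusted p = 0.9998), and 9 of 11 H24 libraries lay below the S24 mean of log2 values. Without S24 mouse 41 it was -1.28 (p = 0.033), and without the 3 libraries that stand apart it was -2.74 (p = 0.00015, adjusted p = 0.75).

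Mir6236, a gene annotated as a miRNA hairpin (chr9:110281287-110281409, + strand), ranged from 0.293 to 3.95 CPM with a median of 1.69 CPM in H24 mice and from 0 to 53.99 CPM with a median of 6.76 CPM in S24 mice. S24 mouse 41 was again the highest and S24 mouse 46 the lowest, and the log2 difference was -2.69 ± 0.71 (SE, p = 0.0010, adjusted p = 0.9998). These libraries hold fragments of long RNA counted over the hairpin, not the mature miRNA. The mature sequence from RefSeq (GRCm38.p6, chr9:110281353-110281371, + strand) is shown because the gene had the smallest p of the rule's lower genes, with the seed, bases 2 to 8, in capitals.
mmu-miR-6236: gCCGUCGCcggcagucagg
Of the loci that accompany them, named after their values were seen, Gm15564 is an antisense gene (chr16:35966752-35983230, - strand) and CT010467.1 is annotated as ribosomal RNA (chr17:39846353-39848827, - strand). Gm15564 ranged from 19.0 to 164 CPM (median 38.1 CPM) in H24 mice and from 4.03 to 1548 CPM (median 130 CPM) in S24 mice, with a log2 difference of -2.54 ± 0.70. CT010467.1 ranged from 70.2 to 306.4 CPM (median 129.2 CPM) in H24 mice and from 23.7 to 1879 CPM (median 240 CPM) in S24 mice, with a log2 difference of -1.76 ± 0.53. Without S24 mouse 41 the log2 differences were -1.68 for Mir6236, -1.43 for Gm15564 and -1.02 for CT010467.1.

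Over the 19 libraries the log2 CPM of Lars2 followed that of Gm15564 (r = 0.99, rho = 0.99), Mir6236 (r = 0.96, rho = 0.99) and CT010467.1 (r = 0.93, rho = 0.89). For these 3 relations every permutation p, raw and adjusted, was 1e-05, the smallest that 100000 permutations can give. Gm15564 and CT010467.1 were named after their values were seen, and Lars2 and Mir6236 are both among the lower genes of the rule. The permutation p-values are therefore no support that any of these loci follows Lars2. The adjustment covers the 3 relations only. Within H24 r was 0.98, 0.94 and 0.75, and within S24 it was 1.00, 0.97 and 0.98, in the same order. Without the 2 libraries farthest from the median of Lars2 r was 0.99, 0.97 and 0.86. Transcripts of Lars2 and Gm15564 share a run of 52 identical bases on the same strand, which is shorter than the 150 bp reads. The part of shared reads in their relation was not tested. The longest run shared by any other pair of the 4 loci was 13 bases. The libraries were depleted of ribosomal RNA. Genes annotated as ribosomal RNA, those of mitochondria included, took 0.839% to 5.88% of the counts in H24 mice, highest in mouse 39, and 0.966% to 2.76% in S24 mice, where mouse 41 was at 1.99% and mouse 46 at 1.01%. Mitochondrially encoded genes, ribosomal RNA included, took 7.38% of counts in H24 mouse 39, 3.27% in S24 mouse 41 and 2.44% in S24 mouse 46. The share of ribosomal RNA was not split by origin, so it does not measure cytoplasmic ribosomal RNA by itself. CT010467.1 was at 254.5 CPM in H24 mouse 39, 1879 CPM in S24 mouse 41 and 23.7 CPM in S24 mouse 46. The part of ribosomal RNA in the 4 loci was not tested.

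**Figure D4:**
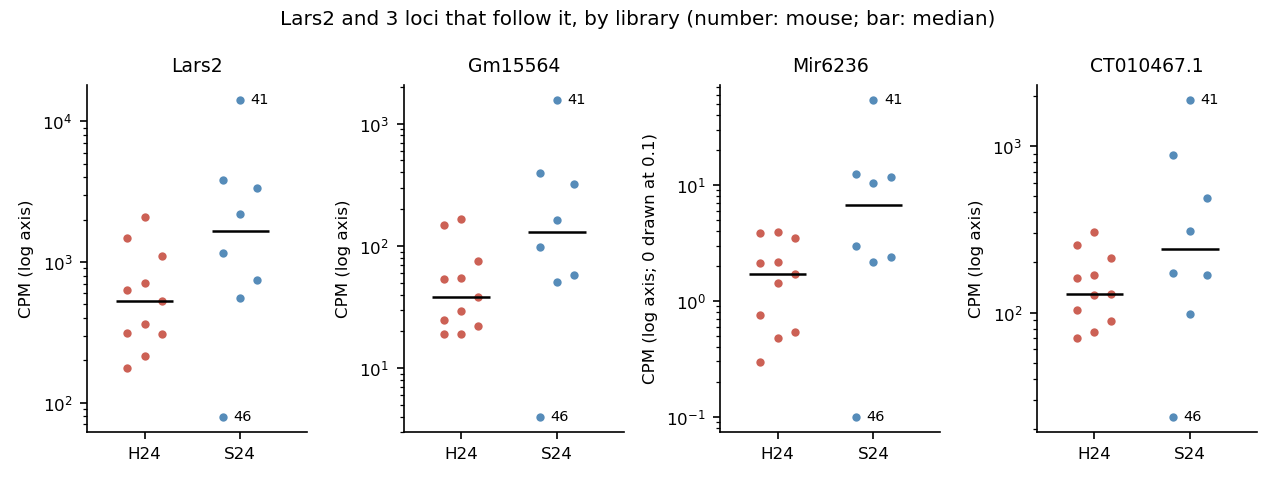
CPM (log axis) of Lars2, Gm15564, Mir6236 and CT010467.1, 1 point per library, H24 left and S24 right, with the group median as a bar and S24 mice 41 and 46 numbered. In all 4 panels S24 mouse 41 is the highest and S24 mouse 46 the lowest library, and the H24 median lies under the S24 median, for Lars2 at 526 and 1664 CPM.

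Of the opioid system, the nociceptin receptor stood out by its small spread. Oprl1 (chr2:181715016-181720985, + strand), the G protein-coupled receptor for nociceptin, ranged from 64.4 to 83.6 CPM with a median of 73.4 CPM in H24 mice and from 74.8 to 91.2 CPM with a median of 80.8 CPM in S24 mice. The groups overlapped between 74.8 and 83.6 CPM, and all 11 H24 libraries lay below the S24 mean on the normalised scale. The log2 difference was -0.16 ± 0.05 (SE, p = 0.0049, adjusted p = 0.9998), and leaving out single mice kept p at or under 0.0155. Its ligand precursor Pnoc ranged from 4.69 to 8.90 CPM in H24 mice and from 4.60 to 8.32 CPM in S24 mice, with a log2 difference of 0.02 ± 0.13.

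The other opioid receptors overlapped fully. Oprm1, the μ-opioid receptor through which heroin acts, ranged from 3.10 to 6.99 CPM in H24 mice and from 2.97 to 7.06 CPM in S24 mice, with a log2 difference of -0.10 ± 0.17 (SE). Oprd1, the δ receptor, was at 12.8 to 21.7 CPM in H24 mice and 10.7 to 20.8 CPM in S24 mice, and Oprk1, the κ receptor, at 1.24 to 6.36 CPM in H24 mice and 0.665 to 5.63 CPM in S24 mice. The enkephalin precursor Penk ranged from 5.61 to 41.7 CPM in H24 mice and from 5.19 to 21.3 CPM in S24 mice, and its log2 difference of 0.43 was 0.04 without H24 mouse 33, the highest library. The dynorphin precursor Pdyn, a product of dentate granule cells, ranged from 0.250 to 6.74 CPM in H24 mice and from 0.308 to 12.6 CPM in S24 mice, highest in S24 mouse 46. Of the 22 genes of opioid receptor signalling 8 were higher (median -0.03) and 0 had an unadjusted p under 0.05; Kcnj6, a subunit of the potassium channel that opioid receptors open, was lowest in p, with a log2 difference of -0.20 ± 0.10 (p = 0.057).

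Immediate early genes, which neurons switch on within minutes of activity, were split 15 higher and 14 lower (median 0.0048). Without S24 mouse 46, whose score of 3.82 was the lowest of all libraries, 10 were higher and 19 lower (median -0.07). Fos ranged from 2.74 to 7.98 CPM in H24 mice and from 2.75 to 6.55 CPM in S24 mice, with a log2 difference of 0.07 ± 0.19 (SE). Arc, Npas4 and Egr1 differed by -0.13, -0.10 and 0.07 on the log2 scale, and Bdnf, the neurotrophin, by -0.11 ± 0.12, all within their standard errors. Egr3, the zinc finger factor, was the only member with an unadjusted p under 0.05, at 41.1 to 61.8 CPM (median 56.2 CPM) in H24 mice and 55.4 to 71.6 CPM (median 62.3 CPM) in S24 mice, with a log2 difference of -0.21 ± 0.09 (SE, p = 0.023). For Egr3 10 of 11 H24 libraries lay below the S24 mean of log2 values, and without S24 mouse 41 p was 0.062.

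Genes that respond to glucocorticoids gave 12 of 17 higher (median 0.05) and 0 at an unadjusted p under 0.05, and without the 3 libraries that stand apart 7 of 17 were higher (median -0.04). Fkbp5, a chaperone of the glucocorticoid receptor, ranged from 56.2 to 75.9 CPM in H24 mice and from 54.6 to 79.5 CPM in S24 mice, with a log2 difference of -0.06 ± 0.07 (SE). Sgk1, a kinase that glucocorticoids induce, ranged from 51.9 to 295.04 CPM in H24 mice, highest in mouse 40, and from 70.5 to 166 CPM in S24 mice. Its log2 difference was 0.14 with mouse 40 and -0.09 without it. Stress and interneuron peptides gave 12 of 17 higher (median 0.05), and 8 of 17 without H24 mouse 39, and the widest was Adcyap1, which encodes the peptide PACAP, at 0.381 to 27.3 CPM in H24 mice and 0.0343 to 12.0 CPM in S24 mice. The log2 difference of Adcyap1 was 1.19 ± 0.79 (SE, p = 0.14), and 1.94 (p = 0.019) without the 3 libraries that stand apart.

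GABA receptor genes were lower more often than higher. Of 16 GABA receptor subunits and transporters 4 were higher and 12 lower (median -0.09). Gabra2, the α2 subunit of the GABA-A receptor, ranged from 62.6 to 97.8 CPM (median 81.2 CPM) in H24 mice and from 73.2 to 126.7 CPM (median 89.3 CPM) in S24 mice, highest in S24 mouse 46. Its log2 difference was -0.21 ± 0.08 (SE, p = 0.018), and -0.09 (p = 0.16) without the 3 libraries that stand apart. Of 21 glutamate receptor subunits 7 were higher and 14 lower (median -0.04), but 11 were higher (median 0.0027) without H24 mouse 40 and S24 mouse 41. Grin2a, a subunit of the NMDA receptor, had a log2 difference of -0.18 ± 0.08 (SE, p = 0.032), with p = 0.13 without the 3 libraries that stand apart.

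The extracellular matrix list held 8 of 11 members lower (median -0.12). Vcan, the proteoglycan versican, ranged from 22.9 to 30.1 CPM with a median of 24.2 CPM in H24 mice and from 24.4 to 33.3 CPM with a median of 28.3 CPM in S24 mice. The groups overlapped, and 10 of 11 H24 libraries lay below the S24 mean, with a log2 difference of -0.21 ± 0.07 (SE, p = 0.0084, adjusted p = 0.9998). It was -0.22 (p = 0.0072) without the 3 libraries that stand apart. Tnr, the matrix glycoprotein tenascin-R of perineuronal nets, ranged from 186.0 to 291.1 CPM in H24 mice and from 240 to 342 CPM in S24 mice, with a log2 difference of -0.19 ± 0.09 (p = 0.044), and p = 0.11 without S24 mouse 41.

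Glial and immune lists had few members past an unadjusted p under 0.05. Astrocyte genes were split 5 and 6 (median -0.02), and 8 of 12 microglial genes were lower (median -0.08). P2ry12, the ADP receptor of resting microglia, ranged from 24.8 to 38.3 CPM (median 30.4 CPM) in H24 mice and from 23.9 to 43.8 CPM (median 37.7 CPM) in S24 mice, with a log2 difference of -0.22 ± 0.09 (SE, p = 0.018), and -0.18 (p = 0.069) without the 3 libraries that stand apart. All 12 oligodendrocyte genes were higher with mouse 40 (median 0.07) and 4 of 12 without it (median -0.05), with Cnp, a myelin enzyme gene, at 112.5 to 363.7 CPM in H24 mice and 91.9 to 351 CPM in S24 mice. Precursors of these cells (4 of 6 higher, median 0.01) and endothelial and mural cells (11 of 15 higher, median 0.07) had 0 members at that threshold. Of 25 tested interferon and inflammation genes 16 were higher (median 0.17, and 0.04 without mouse 40). Socs3, the feedback inhibitor of cytokine signalling, ranged from 1.09 to 2.29 CPM (median 1.54 CPM) in H24 mice and from 0.425 to 1.60 CPM (median 1.04 CPM) in S24 mice. All 11 H24 libraries lay above the S24 mean for Socs3, and the log2 difference was 0.58 ± 0.22 (p = 0.016). Ifitm3, an interferon-induced membrane protein gene, differed by 0.59 ± 0.22 (p = 0.014), highest in mouse 40, and by 0.33 (p = 0.11) without the 3 libraries.

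Clock genes were split 9 higher and 7 lower (median 0.02), and 4 of 16 were higher (median -0.06) without H24 mouse 39. Cry1, a repressor of the clock, ranged from 12.6 to 16.5 CPM with a median of 14.8 CPM in H24 mice and from 11.3 to 14.8 CPM with a median of 12.9 CPM in S24 mice. The groups overlapped, 10 of 11 H24 libraries lay above the S24 mean, and the log2 difference was 0.17 ± 0.07 (SE, p = 0.0265), and 0.15 (p = 0.071) without the 3 libraries that stand apart. Per1 differed by 0.04 ± 0.15 and Arntl, its activator, by -0.17 ± 0.10 (p = 0.084). Heat shock and cold-inducible genes gave 3 of 10 higher (median -0.06), and 6 of 10 (median 0.02) without the 3 libraries that stand apart, with Cirbp, the cold-inducible RNA-binding protein gene, at 0.20 ± 0.10 (p = 0.047) and 0.09 (p = 0.31) without the 3 libraries. All 13 mitochondrially encoded genes were lower (median -0.14, 0 at an unadjusted p under 0.05), and without S24 mouse 46, which held the highest mt-Co3 and mt-Nd3, 6 of 13 were higher (median -0.02).

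Outside these lists, the genes with the smallest p were low or moderate in level and overlapped between the groups. Ggt1 (chr10:75561604-75586200, + strand), which encodes the enzyme that starts the breakdown of extracellular glutathione, ranged from 1.37 to 4.71 CPM with a median of 2.65 CPM in H24 mice and from 0.828 to 2.04 CPM with a median of 1.52 CPM in S24 mice. In 10 of 11 H24 libraries Ggt1 lay above the S24 mean, and the log2 difference was 0.74 ± 0.21 (SE, p = 0.0017, adjusted p = 0.9998) with mouse 40 and 0.62 (p = 0.0036) without it. Cdc25a, the phosphatase that lets cells enter the division cycle, ranged from 6.66 to 11.2 CPM (median 9.03 CPM) in H24 mice and from 4.67 to 8.70 CPM (median 6.87 CPM) in S24 mice. All 11 H24 libraries lay above the S24 mean of log2 values for Cdc25a, with a log2 difference of 0.40 ± 0.12 (p = 0.0029), and 0.45 (p = 0.0015) without the 3 libraries that stand apart. Cyp2s1, a cytochrome P450 gene, ranged from 0.642 to 2.39 CPM (median 1.60 CPM) in H24 mice and from 0.351 to 0.953 CPM (median 0.865 CPM) in S24 mice, with a log2 difference of 0.92 ± 0.27 (p = 0.0025). Sertad3, a transcriptional co-regulator gene, differed by 0.58 ± 0.17 (p = 0.0028).

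Among the lower genes, Trmt5 (chr12:73280011-73286710, - strand), a tRNA methyltransferase, ranged from 7.84 to 10.2 CPM with a median of 8.62 CPM in H24 mice and from 8.67 to 12.1 CPM with a median of 11.5 CPM in S24 mice. All 11 H24 libraries lay below the S24 mean, although 3 S24 libraries lay among them, and the log2 difference was -0.28 ± 0.08 (SE, p = 0.0020, adjusted p = 0.9998). Kcnq1ot1, an imprinted long non-coding RNA that silences its neighbours, ranged from 26.4 to 49.1 CPM (median 35.6 CPM) in H24 mice and from 28.7 to 73.9 CPM (median 52.9 CPM) in S24 mice, with a log2 difference of -0.48 ± 0.15 (p = 0.0033). It is antisense to Kcnq1, and the strand setting of the counting is not given in the sources used here. Cacna2d1, the calcium channel subunit that gabapentin binds, ranged from 242.8 to 376.0 CPM in H24 mice and from 268.7 to 403.5 CPM in S24 mice, with a log2 difference of -0.22 ± 0.07 (p = 0.0055). Luzp2, a leucine zipper protein gene (-0.20 ± 0.06, p = 0.0032), Ccdc18 (-0.58 ± 0.18, p = 0.0040), the DNA repair gene Ercc6 (-0.16 ± 0.05, p = 0.0062) and Abraxas2, a deubiquitinase subunit gene (-0.18 ± 0.06, p = 0.0066), complete the lower genes of the rule, and each lay below the S24 mean in at least 10 of 11 H24 libraries.

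**Figure D5:**
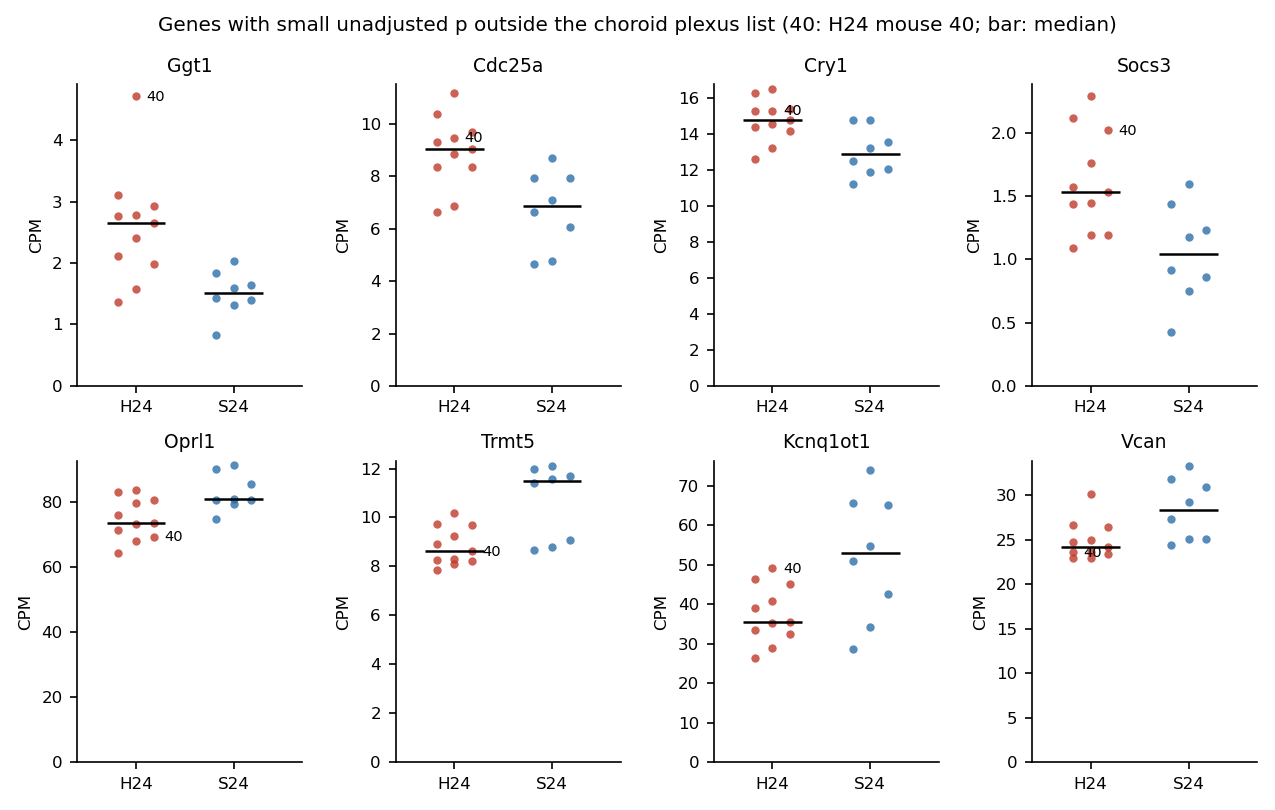
CPM of 8 genes outside the choroid plexus list, 1 point per library, H24 left and S24 right, with the group median as a bar and H24 mouse 40 numbered. The groups overlap in all 8 panels; the H24 median is above the S24 median for Ggt1 (2.65 and 1.52 CPM), Cdc25a, Cry1 and Socs3, and below it for Oprl1 (73.4 and 80.8 CPM), Trmt5, Kcnq1ot1 and Vcan.

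With the choroid plexus score of each library as a covariate 0 genes were called, and 502 (2.80%) had an unadjusted p under 0.05. The genes with the smallest p in that fit included Pnck, a calmodulin kinase gene, with a log2 difference of 0.38 with the covariate and 0.22 without it. Efnb2, the membrane ligand ephrin-B2, stood at 0.51 with the covariate and 0.38 without it, and Lrrc2 at 0.89 with it and 0.72 without it. Lower were Lgals9, the lectin galectin-9, at -0.49 with the covariate and -0.35 without it (-0.22 without S24 mouse 50), and Hsd17b4, a peroxisomal enzyme of fatty acid oxidation, at -0.15 with it and -0.11 without it.

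The same mice also gave amygdala libraries, which allowed a test of whether heroin and saline mice differed by another amount in the ventral hippocampus than there. For 11 H24 mice and 7 S24 mice with both libraries the log2 CPM of the vHPC minus that of the BLA was compared with limma. Of 20160 genes 0 (0%) had an adjusted p under 0.05, the smallest being 0.93, and 488 (2.42%) had an unadjusted p under 0.05. All 28 choroid plexus genes were tested here. Wfdc2, Kcne2, Steap1 and Tmem72 did not pass the filter in the vHPC alone and passed here with the BLA libraries included. The list was highest in BLA libraries of H24 mice, so the direction of these genes is no separate result. For all 28 the heroin-minus-saline difference was smaller in the vHPC than in the BLA, with a median of -1.09 against -0.0013 over all genes. The 5 H24 mice with a BLA library at 3685 CPM of Ttr or more move with this median, and their part in it was not tested. For Oprl1 the difference between the regions was -0.07 (adjusted p = 1.00), for Trmt5 it was -0.32 (adjusted p = 1.00), and for Lars2 it was -3.45 (adjusted p = 1.00). In the BLA, Lars2 ranged from 71.9 to 46825 CPM in H24 mice and from 73.3 to 848 CPM in S24 mice. The value for Lars2 therefore also holds higher BLA levels in some H24 mice, and is not a vHPC decrease alone.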

How the data were processed

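Members and gene lists were chosen with earlier results of these data known. The values are raw read counts per gene that the authors deposited in 1 table. RNA was prepared with the RNEasy Micro kit and strand-specific, ribosomal RNA-depleted TruSeq Gold libraries were sequenced as 2 ends of 150 bp, per the labels' protocols. Per the submitters' processing notes, HISAT2 alignment to mm10 was combined with FastQC, SAMtools and HTSeq; versions, settings and annotation release are not given in the sources used here. Of the deposited files 7 more were left aside, and 0 columns of values had no sample. Columns were matched to samples by the code in the title.

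Gene names and coordinates come from GENCODE M21 (GRCm38, the same assembly as mm10), which gave a symbol to 52489 of 52636 genes. Genes were kept with the edgeR filter at a minimum count of 10 and fitted with edgeR 4.0.16 in R 4.3.3 (TMM, quasi-likelihood, 1 coefficient per group, prior count 1), with Benjamini-Hochberg adjustment over all 17955 genes and calls at an adjusted p under 0.05. All tests are two-sided. CPM values per library are counts over the library total. Libraries of a group were separate mice; the chi-square over its degrees of freedom was at least 7.33 in 83 pairs within a group, where counting noise gives 1. The BLA comparison used limma 3.58.1 on differences per mouse, since both libraries come from the same mouse, per the labels. The statistics were tested on simulated counts. Alternatives were DESeq2 1.42.0, other size factors, filters and prior counts, voom weights, cell type covariates, all 51 vHPC libraries and each library left out. After the values were seen, H24 mouse 40 and S24 mouse 41, and H24 mice 39 and 40 and S24 mouse 46, were also left out together. Promoter and miRNA sequences are from RefSeq tables of GRCm38.p6.

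Named genes average 1 CPM or more and carry no clone or model name: the 10 higher and 10 lower with the smallest p, 6 and 6 from the fit with the choroid plexus covariate, the 2 members with the smallest p of each list, all tested choroid plexus genes, and a set taken whatever their p (Mir6236, 8 opioid genes less Pomc, and activity, stress, clock and neurogenesis genes). Mbp, Pomc, Gm15564, CT010467.1, Gh and Prl were added after their values were seen. The text describes a part of these genes.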

Additional observations from a re-analysis of the deposited data

Results flagged for a closer look

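In the S24 group of 8 libraries a value was marked when its gap to the nearest other library, on the normalised log2 scale, exceeded the 95% critical value of Dixon's test. Groups of more than 10 libraries were not screened in this way, so the H24 group of 11, with mouse 40 in it, was not. Of 160 values tested, 23 were marked; chance marks about 1 in 20.

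S24 mouse 46 gave most of them. It was the lowest library for C1ql1 (3.61 CPM), Dusp1 (6.05 CPM), Egr1 (10.7 CPM), Htr2c (23.7 CPM), Pou3f1 (1.59 CPM), Ppp1r1b (8.02 CPM), Prlr (3.83 CPM), Sostdc1 (0.310 CPM) and Mir6236 (0 CPM). The other 7 S24 libraries held at least 25.4 CPM of Egr1, 17.1 CPM of Pou3f1 and 61.7 CPM of Htr2c. Mouse 46 was the highest library for Gabra2 (126.7 CPM), mt-Co3 (136.2 CPM) and mt-Nd3 (25.7 CPM), where the other 7 reached at most 95.5, 34.3 and 5.22 CPM. Its scores, as mean log2 CPM, were lowest for oligodendrocyte precursors (4.52), pallial excitatory neurons (6.41), CA1 pyramidal cells (3.71) and immediate early genes (3.82), and highest for mitochondrially encoded genes (7.29).

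S24 mouse 34 was the lowest for Grin2a (614.5 CPM, others from 750.4 CPM) and the highest for Trpv4 (1.55 CPM, others up to 0.695 CPM). S24 mouse 37 was the lowest for Ccdc18 (1.33 CPM) and the highest for Ly6c1 (35.6 CPM). S24 mouse 35 was the lowest for P2ry12 (23.9 CPM), and S24 mouse 44 was the highest for Ercc6 (73.5 CPM).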

How the results depend on the processing

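Genes called stayed at 0 in the vHPC comparison and at 0 in the vHPC against BLA comparison under every alternative run, leave-one-out included (0 to 0 in both). With the mouse as replicate block, edgeR's interaction fit called 0 genes, and with no replicate block 0; H24 and S24 share no mouse, so the vHPC comparison itself has no pairing. Genes at an unadjusted p under 0.05 numbered 703, and 3162 of 35701 with no filter; leaving out single mice gave 486 (without H24 mouse 40) to 993 (without S24 mouse 35). The median log2 difference of the choroid plexus list was 2.97, and leaving out single mice gave 0.29 (without H24 mouse 40) to 3.19 (without S24 mouse 49). It was 0.39 with DESeq2, which replaced extreme counts, 0.74 with voom sample weights, 0.31 without H24 mouse 40 and S24 mouse 41, and 0.27 without H24 mice 39 and 40 and S24 mouse 46. It turned to -0.063 with the choroid plexus score as covariate and to -0.075 with the choroid plexus and blood scores, which holds by construction, since the score is made of these genes. Of 4035 values of named genes under 32 alternatives, those of 36 genes changed sign at least once and 0 were called. At these depths, differences under the replicate spread were not detectable.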

Other observations

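Pituitary hormone transcripts were found in some libraries of both groups. Gh, growth hormone, stood at 150.97, 185.8 and 85.04 CPM in H24 mice 42, 43 and 45 and at 38.3, 95.6 and 76.9 CPM in S24 mice 37, 41 and 44, and at no more than 9.55 CPM in the other H24 mice and 5.98 CPM in the other S24 mice. Prl, prolactin, was at 22.0, 31.9 and 12.9 CPM in the same H24 mice and at 8.52, 17.8 and 9.69 CPM in the same S24 mice, and Pomc, the precursor of pituitary and hypothalamic peptides, was at 8.39, 55.6 and 6.41 CPM in those H24 mice and at 13.1, 15.7 and 6.33 CPM in those S24 mice. In the other H24 libraries Pomc did not exceed 1.11 CPM and in the other S24 libraries 1.26 CPM. The log2 difference of Gh between the groups was 0.46 ± 1.38 (SE).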
